A study of Rattus norvegicus with 6 samples.

Results

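Actl6b, Cdk5r2, Gpr149, Gpr158 and Hrh3 are 5 neuronal genes that had a REST site in quiescent as well as in proliferating adult rat hippocampal neural stem cells. They were chosen by the presence of a called site in both peak tables: the study lists them among its targets of the quiescent state alone, a list that combined binding with gene expression after REST knockdown, and the annotated tables give each of them a site in both states. Each gene had exactly 1 site per condition, so the 5 genes account for 5 of the 1775 sites in iQNP conditions, 5 of the 778 in TAP conditions and 5 of the 756 sites shared by both. That the sites are shared is how the genes were chosen and is not a result. Expression was not analysed here.

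REST was measured by chromatin immunoprecipitation followed by sequencing (ChIP-seq) in HCN cells, a neural stem cell line cloned from adult rats and kept over multiple passages. In TAP conditions the cells proliferated in 20 ng/ml FGF2. In iQNP conditions, which make the cells quiescent, they received the same 20 ng/ml FGF2 with 50 ng/ml BMP4. Per condition, 1 ChIP library was made with a commercial anti-REST antibody (Millipore), 1 with the homemade antibodies REST14 and REST17 combined, and 1 library of unenriched chromatin served as input. Nothing in the labels says whether the libraries of a condition came from separate cultures, so the p-values measure the spread between these libraries. With condition as the only term, that spread holds the difference between antibodies. With the antibody as a block, the model takes out the part of that difference that both conditions share. Depth was even, from 25.2 to 29.8 (in units of 1000000 tags) per ChIP library.

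REST is a zinc finger repressor that recognises repressor element 1 (RE1), a DNA motif made of a left and a right arm separated by a short spacer. It recruits the corepressors CoREST and Sin3 with histone deacetylases, and in neural stem cells it keeps genes of mature neurons silent until differentiation. The 5 genes have different roles in neurons. Actl6b encodes BAF53b, the actin-related subunit of the neuronal form of the BAF chromatin remodelling complex. Cdk5r2 encodes p39, an activator of the kinase Cdk5. Gpr149 is an orphan G protein-coupled receptor, Gpr158 is a class C receptor that holds the G protein regulator RGS7 at the membrane, and Hrh3 encodes the histamine H3 receptor, which restrains transmitter release from nerve terminals.

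The sites fell into 2 kinds of position, 3 at promoters and 2 away from them (coordinates in rn4). The Actl6b site was at chr12:19621686-19621747 in iQNP and chr12:19621719-19621790 in TAP, with its centre 5 bp before and 33 bp after the transcription start site (TSS). The Gpr158 site was at chr17:95323003-95323082 in iQNP and chr17:95323004-95323070 in TAP, 86 and 92 bp before the TSS. The Hrh3 site was at chr3:169160134-169160192 in iQNP and chr3:169160141-169160238 in TAP, 99 and 126 bp before the TSS. These 3 carry the annotation promoter-TSS, a class in which 24% of the 262 iQNP sites were paired with a TAP site, against 42.6% of all sites in iQNP. The Cdk5r2 site was intergenic, 3119 bp after the TSS in iQNP and 3115 bp in TAP, at chr9:74194927-74194995 and chr9:74194919-74194994. The Gpr149 site was exonic, in exon 3 of 4, 9406 bp after the TSS in iQNP and 9432 bp in TAP, at chr2:152248462-152248521 and chr2:152248433-152248499.

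The centres in both conditions were closest for Cdk5r2, at 4.5 bp, and Gpr158, at 5.5 bp. They were 25.5 bp apart for Gpr149, 26.5 bp for Hrh3 and 38 bp for Actl6b, against a median of 12 bp over the 756 pairs. Actl6b was therefore among the widest pairs, with 17 of the 756 farther apart, and its sites still overlapped by 29 bp. Sites counted as shared up to 50 bp, the widest pair inside the limit was at 50 bp and the nearest outside it at 52.5 bp. With a limit of 25 bp, 627 pairs were left, and Cdk5r2 and Gpr158 were the 2 genes left with a shared site.

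Sequence from RefSeq (build GRCr8, 250 bases before to 50 after the TSS) was matched for 4 of the 5 genes, and not for Gpr149. It is shown because the 3 promoter sites lay within this window, whereas the Cdk5r2 site lay outside it. Each window was searched on both strands for the left arm CAGCAC followed on the same strand by the right arm GGACAGC, with 0 to 20 bases between them. The 2 motifs do not overlap, the letters were chosen after the promoters had been read, and 3 bases are the spacer of the canonical RE1. The stretches of 30 bases with a match are printed with the arms in capitals, on the strand on which the motif reads left to right.
Actl6b (chr12:24778112-24778141, plus strand, opposite to the gene): gggatCAGCACcgaggcggccGGACAGCtc
Gpr158 (chr17:88742729-88742758, plus strand, same as the gene): gggttCAGCACtGGACAGCtcccgccccag
Hrh3 (chr3:187574342-187574371, plus strand, opposite to the gene): gcgggCAGCACcacGGACAGCgccgcgtgc
Hrh3 had the canonical spacer of 3 bases, Gpr158 a spacer of 1 base and Actl6b a spacer of 10 bases. The Cdk5r2 window held the left arm but not the right arm, and the left arm was found in 19.7% of the 33469 rat promoters.

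Both arms were thus found in 3 of the 4 windows, and in 44 of the 33469 rat promoters in the table, or 0.131%. Among genes with a promoter-TSS site in iQNP and a TAP site, 16 of the 51 with a sequence had both arms (31.4%), and these include Actl6b, Gpr158 and Hrh3. Among those whose iQNP promoter site had no TAP site, 3 of 175 did (1.71%). The canonical spacer was found in 10 promoters in all, or 0.0299%, and in 4 of the 51. Since the letters were chosen after the promoters had been read, the shares are not a test. A match is a description of letters, not of binding.

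The middle of the motif lay 82 bases before the TSS in Gpr158 and 95 before it in Hrh3, which is 4 bases from the centre of the iQNP site in both genes. The distance to the centre of the TAP site was 10 bases in Gpr158 and 31 in Hrh3. In Actl6b, the motif was centred 23.5 bases after the TSS, 28.5 bases from the iQNP centre and 9.5 from the TAP centre. In all 3 genes the middle fell inside the site of either condition. These distances take the TSS of the rn4 annotation and of RefSeq as the same base, which was not tested. The 150 bases before the TSS of the genes with the motif upstream, on the strand of the gene with the arms in capitals, show where the motif sits.
Gpr158 (chr17:88742673-88742822, GRCr8, plus strand): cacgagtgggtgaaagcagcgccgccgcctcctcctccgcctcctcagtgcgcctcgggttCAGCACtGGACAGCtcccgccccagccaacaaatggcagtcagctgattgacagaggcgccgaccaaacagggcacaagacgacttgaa
Hrh3 (chr3:187574260-187574409, GRCr8, minus strand): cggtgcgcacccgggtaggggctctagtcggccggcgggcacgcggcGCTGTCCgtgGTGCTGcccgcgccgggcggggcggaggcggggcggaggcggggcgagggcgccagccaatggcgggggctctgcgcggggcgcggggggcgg
In Hrh3 the arms appear as their reverse complements, since the motif reads on the opposite strand.

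**Figure D1:**
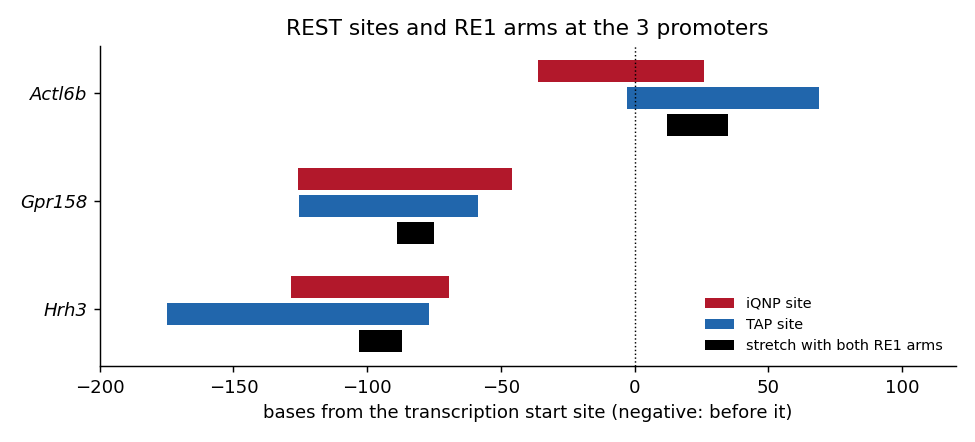
Position of the REST sites at the promoters of Actl6b, Gpr158 and Hrh3, as bases from the TSS (x axis; negative values lie before it). Red bars are iQNP sites, blue bars TAP sites (rn4 annotation) and black bars the stretch from the left to the right RE1 arm (RefSeq, GRCr8); the middle of each black bar lies inside both sites, 82 and 95 bases before the TSS in Gpr158 and Hrh3 and 23.5 bases after it in Actl6b.

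REST occupancy was read as normalized tags, the sequenced fragment ends at a site scaled to 10000000 tags per library. A higher value can mean that more cells were bound or that binding per cell was stronger, which ChIP-seq of a whole culture cannot tell apart. It need not mean either. Whether the libraries differed as a whole for technical reasons was not tested.

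Hrh3 had the highest mean of the 5 in both conditions, although Gpr158 had more tags in the homemade TAP library. In iQNP it had 86.2 (commercial) and 54.7 (homemade) normalized tags, and in TAP 38.1 and 29.8. Both iQNP values were above both TAP values, with means of 70.5 ± 22.3 and 33.95 ± 5.87 (SD, n = 2 antibodies). The iQNP level ranked 61 of the 1775 sites and the TAP level 60 of the 778.

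Gpr158 had 74.5 and 41.0 normalized tags in iQNP with the commercial and homemade antibodies, against 35 and 32.2 in TAP. The commercial iQNP library stood high, and the other 3 values lay close together. The means were 57.8 ± 23.7 in iQNP and 33.6 ± 1.98 in TAP (SD, n = 2), rank 84 of 1775 and rank 63 of 778.

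Actl6b had 52.1 and 38.9 normalized tags in iQNP with the commercial and homemade antibodies, and 37.7 and 26.6 in TAP. The groups did not overlap, but the homemade iQNP value was close to the commercial TAP value. The means were 45.5 ± 9.33 and 32.2 ± 7.85 (SD, n = 2), rank 138 of 1775 and rank 72 of 778.

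At the sites away from promoters the levels were lower. Gpr149 had 33 and 27.9 normalized tags in iQNP with the commercial and homemade antibodies, and 17.9 with either in TAP, which put it at percentile 78.7 in the iQNP table and 71.6 in the TAP table. Cdk5r2 had 19.2 and 18.1 in iQNP, against 14.8 and 15.9 in TAP, at percentiles 52.6 and 62.2. Its 4 libraries thus lay within a narrow range in the middle of both tables.

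In iQNP the order of the means was Hrh3, Gpr158, Actl6b, Gpr149 and Cdk5r2, and it was the same within each antibody. Across antibodies, the libraries of Hrh3 overlapped with those of Gpr158, and those of Gpr158 with those of Actl6b. Gpr149 and Cdk5r2 each lay below the genes before them in that order without overlap. In TAP, the libraries of Hrh3, Gpr158 and Actl6b overlapped, and those of Gpr149 and then Cdk5r2 lay lower. All 5 genes were above the median of the 49 iQNP sites of the same study list that had no TAP partner (10.3 normalized tags), taken from the 61 genes of that list used here, which are not the whole list. Hrh3 and Gpr158 were also above the highest of these sites (53.5). That comparison is a description, since the 5 genes were chosen for their TAP site.

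**Figure D2:**
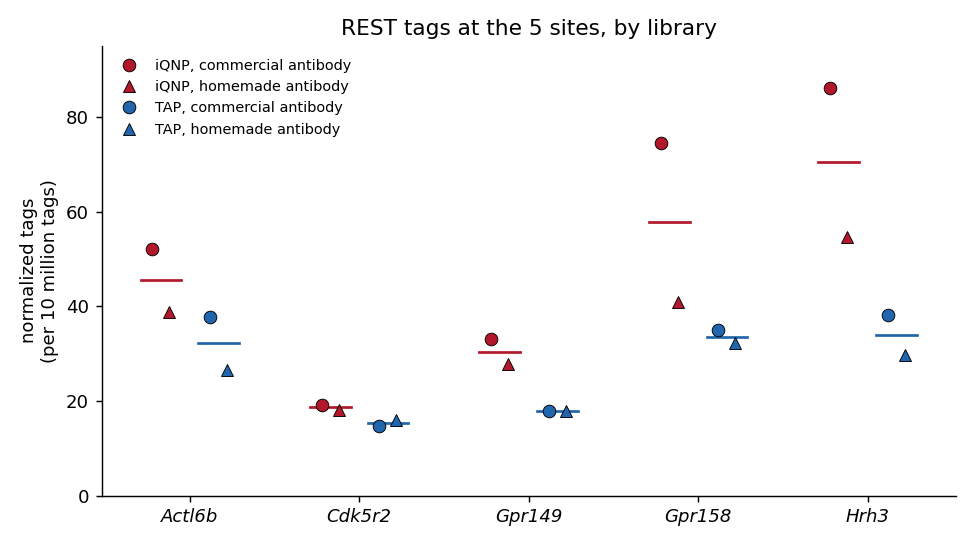
Normalized tags (y axis, per 10000000 tags) at the 5 sites in each of the 4 ChIP libraries; circles are the commercial and triangles the homemade antibodies, red is iQNP, blue is TAP, and lines are means of the 2 libraries. In each gene both iQNP points lie above both TAP points, by least in Actl6b (38.9 against 37.7) and most clearly in Hrh3 (54.7 against 38.1). These gaps set the homemade iQNP value against the commercial TAP value. Within each antibody the points lie closest in Cdk5r2 (19.2 against 14.8 and 18.1 against 15.9).

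The design compares occupancy in quiescent and proliferating cells. Hrh3 had 2.08-fold more normalized tags in iQNP than in TAP, Gpr158 1.72-fold, Gpr149 1.70-fold, Actl6b 1.42-fold and Cdk5r2 1.22-fold. Both iQNP libraries were above both TAP libraries at all 5 genes, which was also so at 92.7% of the 756 shared sites. On the log2 scale the median of the 5 ratios was 0.77, against 1.05 over all shared sites, 0.88 over the 63 pairs at promoters and 0.87 over the 8 other shared sites of the same study list. The ratios were below or at the middle of all shared sites, at percentile 1.59 for Cdk5r2, 5.95 for Actl6b, 21.2 for Gpr149, 23.4 for Gpr158 and 49.9 for Hrh3. Because the genes were chosen for having a site in TAP, nothing is read from where their ratios lie.

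Antibodies differed in the size of the ratio. Hrh3 had log2 ratios of 1.18 (commercial) and 0.88 (homemade), and Gpr149 had 0.88 and 0.64. Gpr158 differed most, with 1.09 and 0.35. Actl6b, at 0.47 and 0.55, was the one gene with the larger ratio for the homemade antibodies, and Cdk5r2 had 0.38 and 0.19. From counting error alone (exact 95% binomial intervals on total tags), 7 of the 10 ratios lay above 0. The 3 whose interval held 0 were both of Cdk5r2 (-0.26 to 1.01 and -0.43 to 0.82) and the homemade one of Gpr158 (-0.07 to 0.77). The share of all shared sites with an interval above 0 was not counted. Nothing particular to these genes is therefore read from the 7 ratios above 0. The Cdk5r2 ratios rested on 54 and 54 total tags in iQNP, against 38 and 40 in TAP. The upper bounds of its intervals lay below the medians of all shared sites with the same antibody, 1.16 and 0.92. Nothing is read from that either, since the intervals hold counting error only and the genes were chosen for their TAP site.

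By edgeR's quasi-likelihood test over the 756 shared sites, with Benjamini-Hochberg adjustment, Hrh3 alone passed the threshold of 0.05 (log2 ratio 1.05, SE 0.45, adjusted p = 0.0334). The adjusted p was 0.0669 for Gpr149, 0.0897 for Gpr158, 0.256 for Actl6b and 0.472 for Cdk5r2. This is 1 of 5 genes, where 68.4% of the shared sites passed with more tags in iQNP. With the antibody as a block in the model, 4 of the 5 passed, against 94.8% of the shared sites, with adjusted p of 1.96e-08 for Hrh3, 3.51e-05 for Gpr158, 0.000724 for Gpr149 and 0.00695 for Actl6b. Cdk5r2 did not pass (adjusted p = 0.298). With 2 libraries a side, the smallest two-sided p of an exact permutation test would be 1 in 3.

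The direction of these ratios holds for tags scaled to the depth of the library. TMM normalization over the shared sites moves the typical shared site by 1.04 on the log2 scale, to a ratio near 0, and relative to it all 5 genes were negative. Cdk5r2 (-0.77, adjusted p = 0.0141) and Actl6b (-0.56, adjusted p = 0.0127) then passed edgeR's test as lower in iQNP, and Gpr158 (-0.28), Gpr149 (-0.26) and Hrh3 (-0.01) did not pass. Under that scaling 39 shared sites passed as higher in iQNP and 51 as lower (5.16% and 6.75%), in place of 517 and 0. The size of the Hrh3 ratio also depended on single libraries. Its log2 ratio was 0.69 without the commercial iQNP library and 1.34 without the homemade iQNP library. It was 1.24 without the commercial TAP library and 0.89 without the homemade TAP library.

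**Figure D3:**
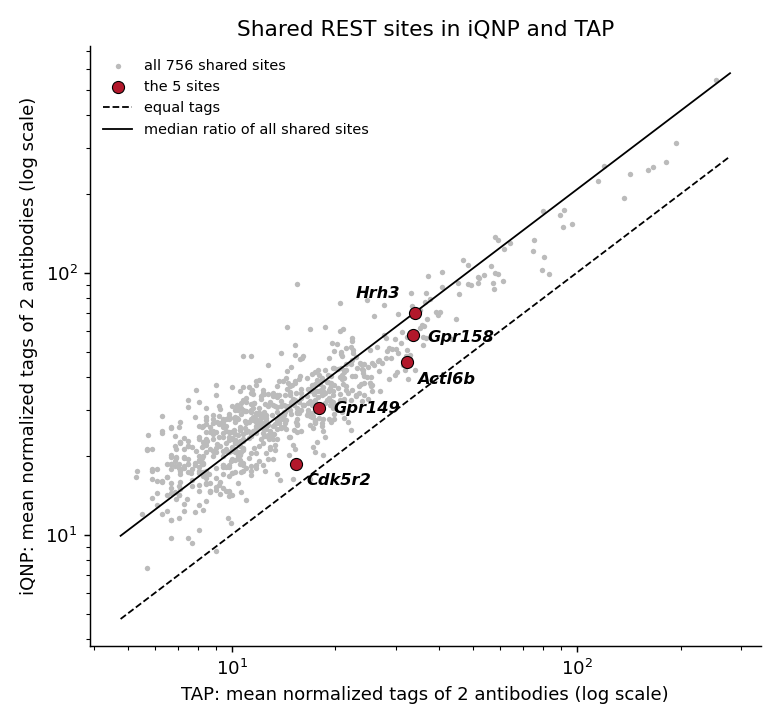
Mean normalized tags of both antibodies in TAP (x axis) and iQNP (y axis) at the 756 shared sites, both axes on a log scale; grey points are all shared sites, red points the 5 genes, the dashed line equal tags and the solid line the median ratio. The 5 genes lie above the dashed line, Hrh3 on the solid line and Cdk5r2 farthest below it.

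Fold over input, the second readout of occupancy in the tables, gave another picture for the receptors Gpr149 and Gpr158. At Gpr149 it was 14.5 (commercial) and 11.9 (homemade) in iQNP, and 50.8 with either in TAP, so that the value was lower in iQNP although the tags were higher. At Gpr158 it was 22.6 and 12.2 in iQNP, against 24.9 and 30.5 in TAP. Fold over input was lower in iQNP with both antibodies at 2 of the 5 genes and at 20.5% of the shared sites.

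The input moved with this. At Gpr149 the input library held 7 tags in iQNP and 1 in TAP, counted in the windows of either antibody. At Gpr158 it held 10 in iQNP, and 4 and 3 in TAP in the windows of the commercial and homemade antibodies. Scaled input at Gpr158 in iQNP was at percentile 99.2 and 99.5 of the shared sites. The log2 ratio of scaled input at Gpr149 was 2.88 in the commercial windows, with an exact 95% interval for counting error from -0.08 to 8.37, and 2.98 in the homemade windows (0.015 to 8.47). At Gpr158 it was 1.39 (-0.40 to 3.52) and 1.91 (-0.05 to 4.40). Both antibodies of a condition share 1 input library, so their folds are not separate measurements of the input, and the part of the input in the result was not tested further.

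At the other 3 genes the input held from 2 to 5 tags. Actl6b had a fold over input of 38.9 and 29.1 in iQNP, against 21.4 and 18.9 in TAP, with both iQNP values higher. Hrh3 had 51.7 and 40.8 in iQNP, against 36.1 and 21.2 in TAP, again with both higher. Cdk5r2 had 19.1 and 27.1 in iQNP, against 21 and 22.6 in TAP, and its antibodies pointed in opposite directions.

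Fold over the local background, which sets the tags at a site against those of the same library around it, was higher in iQNP at all 5 genes with both antibodies. At Gpr149 it was 27.4 and 25.2 in iQNP, against 19.5 and 20.1 in TAP, and at Gpr158 it was 55.2 and 40.6 against 35.3 and 33.2. The median log2 ratio of the 5 genes on this scale was 0.49 (commercial) and 0.33 (homemade), against 1.06 and 0.89 over all shared sites. The share of shared sites higher in iQNP on this scale was not counted, so nothing particular to the 5 genes is read from their direction. The least enriched value at any of the 5 genes was 11.9-fold over input, and the weakest p-value against input was that of Cdk5r2 in TAP with the commercial antibody (2.02e-36, as the authors' peak caller gave it). From 0.81 to 0.961 of the tags at each site lay on the side of the centre that a single bound point predicts, the measure HOMER calls the focus ratio.

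**Figure D4:**
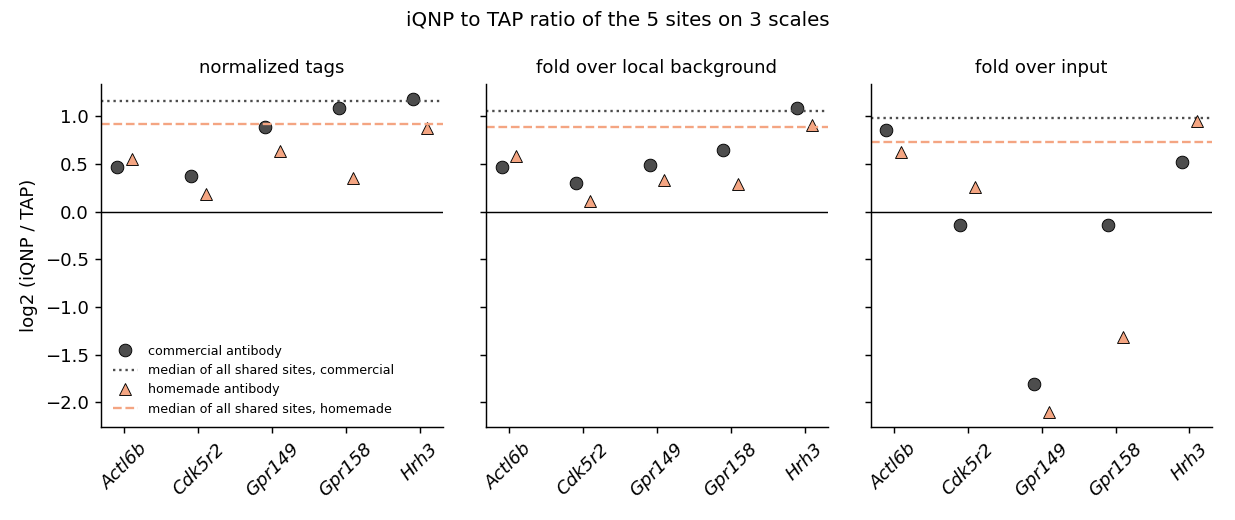
Log2 ratio of iQNP to TAP (y axis) at the 5 genes for normalized tags, fold over the local background and fold over input; circles are the commercial and triangles the homemade antibodies, and the dotted and dashed lines are their medians over the 756 shared sites. Gpr149 and Gpr158 are above 0 in the first 2 panels and below 0 in the third.

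The antibodies themselves were compared within each condition. In iQNP the commercial antibody gave more normalized tags at all 5 genes, as it did at 97.6% of the shared sites, with log2 ratios from 0.09 at Cdk5r2 to 0.86 at Gpr158 and a median of 0.42. In TAP it gave more at 3 of the 5, and at 74.1% of the shared sites, with a median of 0.12. Gpr149 had equal values in TAP, and Cdk5r2 had fewer tags with the commercial antibody (log2 ratio -0.10). With 1 library per antibody and condition, these ratios have no replicate check.

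Other genes of the pathways in which the 5 genes act were looked up for sites. The share of all rat genes with a site was not counted, so the numbers are a description. Of 24 genes of the BAF complex, Actl6b was the 1 gene with a shared site, while Smarcd2 and Smarcd1, which encode BAF60 subunits, had weak sites in iQNP without a TAP partner (8.28 and 5.01 normalized tags). Of 8 genes of Cdk5 and its activators and partners, Cdk5r2 had a partner in Cdk5r1, which encodes the related activator p35. That site lay in an intron, with the TSS of Cdk5r1 the nearest at 131 kb, with 20.6 normalized tags in iQNP and 11.8 in TAP, a log2 ratio of 0.80 that did not pass edgeR's test (adjusted p = 0.0558) but did with the antibody as a block (adjusted p = 0.00502). Of 6 genes of histamine receptors and enzymes, Hrh2 had a site besides Hrh3, 47.9 kb from its TSS and in iQNP alone (9.16 normalized tags).

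Among receptors with a Gpr symbol, 4 genes other than Gpr149 and Gpr158 had a shared site, namely Gpr83, Gpr139, Gpr12 and Gpr19. Their log2 ratios were 1.25, 1.34, 1.52 and 0.86, and all 4 passed edgeR's test (adjusted p = 0.00815, 0.00356, 0.00121 and 0.0371), as 68.4% of all shared sites did. Gpr83, Gpr139 and Gpr12 had intergenic sites 76.2, 67.9 and 72.7 kb from a TSS, and Gpr19 had a promoter site, like Gpr158, 0.49 kb before its TSS.

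Of 24 established RE1 targets, 17 had a shared site, at 19 sites in all, and their median log2 ratio of 0.82 lay near the 0.77 of the 5 genes. By edgeR's test 8 of the 19 sites passed with more tags in iQNP, where 68.4% of all shared sites did, and 15 passed with the antibody as a block, where 94.8% did. Snap25, a plasma membrane SNARE of synaptic vesicle fusion, had 96.0 normalized tags in iQNP and 51.8 in TAP. L1cam, a neuronal adhesion molecule, had 72.3 and 35.2, close to Hrh3. Npas4, an activity-dependent transcription factor, had the most tags of the list, 263.9 and 181.8, with a log2 ratio of 0.54. Celsr3, Scg2 and Hcn4, the others among the 6 with the most tags, had log2 ratios of 0.25, 0.82 and 0.92.

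Among the 61 genes of the study's list used here, the others with a shared site were Calb1, Ctnna2, Gjd2, Grb10, Hcn3, Kcnh4, Kcnk12 and Svop. Their log2 ratios ran from 0.12 at Kcnh4 to 1.39 at Grb10. Calb1, Ctnna2, Gjd2 and Grb10 passed edgeR's test (adjusted p = 0.0349, 0.00796, 0.00928 and 0.00247), which is 4 of 8 against 68.4% of all shared sites. With the antibody as a block, Svop (adjusted p = 8.21e-06) and Kcnk12 (0.0166) passed too, which makes 6 of 8 against 94.8%, and Hcn3 and Kcnh4 did not. Svop, a synaptic vesicle protein with a promoter site, had 69.3 normalized tags in iQNP and 39.6 in TAP, near the levels of Hrh3.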

How the data were processed

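REST ChIP-seq of HCN cells was analysed in 4 ChIP libraries, with 2 input libraries behind them. Reads had been mapped to rn4 (Bowtie2) by the authors, who ran HOMER on each library with the input as control and then joined peaks of the antibodies that lay within 50 bp. The deposited tables hold, per site and antibody, total tags (counts), normalized tags and scaled input tags (a signal, per 10000000 tags or at the depth of the library), fold over input and over local background (ratios), p-values against input, the focus ratio (a fraction) and a peak score, not used here. The authors' annotation of the sites gave gene, class and distance to the TSS.

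The ratio of total to normalized tags gave the depth, and sites were paired one to one, closest first, with centres within 50 bp. Total tags were tested with edgeR (version 4.0.16, R 4.3.3; DESeq2 1.42.0 as an alternative), with condition as the only term and the depths as library sizes. On simulated data with 200 of 756 sites changed by 2 on the log2 scale, 100% were recovered and 4.31% of the calls were false. That change is larger than edgeR's log2 ratios of the genes studied, which ran from 0.28 to 1.05. Recovery of changes of their size was not tested, so the simulation does not give the sensitivity of the test for these genes. The replicate number stands for the antibody and so pairs libraries made with one reagent. Their deviations from the condition means correlated at 0.0445, and the block lowered edgeR's coefficient of variation from 0.211 to 0.0897. Scaled input tags were read as whole tags with a tolerance of 0.06, which at least 99.7% of the values met. Intervals cover counting error only. Python 3.11.15 and scipy 1.17.1 were used.

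The 5 genes and the gene lists were chosen with earlier results of these data known. Named besides the 5 genes were members of the lists with a shared site, by mean iQNP tags, the other genes of the study's list, as far as it was used here (61 genes), with a shared site within 10 kb of a TSS, and for each of the 5 genes the shared site with the closest tags in the 4 libraries. List genes with a site in iQNP alone were named after their values were seen. L1cam and Npas4 are among the 6 with the most tags of their list. Peak sequences in rn4 were not used here.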

Additional observations from a re-analysis of the deposited data

How the results depend on the processing

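The 5 genes had a shared site with centres within 100 or 200 bp, an input p-value no higher than 1e-10 or a fold over input of at least 8 in every library, and 2 of them with centres within 10 or 25 bp. Shared sites in all numbered 761 at 100 and at 200 bp, 656 with the p-value limit and 562 with the fold limit. They numbered 321 at 10 bp and 627 at 25 bp, against 756 at 50 bp. The number of the 5 that passed edgeR's test was 1, where 517 of the 756 shared sites did. With library sizes scaled by the window width it was 2 (Hrh3 and Gpr149), where 604 of the 756 did. With the replicate block, which pairs the libraries by antibody, 4 passed and 717 of the shared sites did. With TMM normalization 2 passed, as lower in iQNP, among 90 shared sites. With DESeq2 and its own size factors 0 of the 5 and 2 shared sites passed, where 2 and 82 had an unadjusted p under 0.05. With DESeq2 and the depths, with at least 20 tags, or with pairs up to 200 bp, Hrh3 alone of the 5 passed. In these settings 509 of 756, 396 of 599 and 520 of 761 shared sites passed.

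Leaving out 1 library gave 0 to 4 of the 5 genes and 0 to 716 shared sites, the lone library being assumed to vary like the others. Across the 5 genes the log2 ratios ran from 0.32 to 1.34 without the homemade iQNP library. They ran from 0.24 to 0.69 without the commercial one. The number of shared sites that passed changed with the library left out, so nothing particular to the 5 genes is read from their number. Without either TAP library 0 genes and 0 shared sites passed edgeR's test, though 185 and 112 shared sites had an unadjusted p under 0.05. The median log2 ratio of the 5 genes was 0.77 in normalized tags, 0.082 in fold over input, 0.49 over the local background and -0.28 with TMM, and 0.88 with the commercial or 0.55 with the homemade antibodies alone. TMM and DESeq2's own size factors turned each gene's ratio negative, to -0.56 and -0.55 for Actl6b, -0.77 and -0.76 for Cdk5r2, -0.26 and -0.26 for Gpr149, -0.28 and -0.29 for Gpr158 and -0.0097 and -0.011 for Hrh3. Both scalings set the typical shared site to about 0 by construction; the causes of the other changes were not tested. Cdk5r2 had the fewest total tags of the 5 genes in each library, from 38 to 54, and what depth did to its result was not tested.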

Other observations

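Each of the 5 genes had another shared site with nearly the same tags in all 4 libraries, chosen by the smallest Euclidean distance of the log2 values. For Hrh3 it was the promoter site of Tph2, the neuronal tryptophan hydroxylase of serotonin synthesis, 12 bp after its TSS, with 83.4 and 54.7 normalized tags in iQNP, against 39.7 and 28.6 in TAP (distance 0.096). For Gpr158 it was an intergenic site nearest to Syt2, a calcium sensor of synaptic vesicles, with 67 and 41.3 in iQNP, against 31.1 and 31 in TAP (0.24). For Gpr149 it was an intergenic site near Phyhipl (0.22), for Actl6b an intergenic site near Smarcal1 (0.16) and for Cdk5r2 an intronic site of Pde2a (0.38). The likeness is a description over 4 libraries and says nothing of shared function or control.

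The 5 genes also differed in how isolated their sites were. The nearest other site to Gpr149 lay 1313 kb away in iQNP and 2047 kb in TAP, and Gpr158 had 1 other site within 1 Mb in iQNP and 0 in TAP. Cdk5r2 had 3 other iQNP sites and 2 other TAP sites within 100 kb, the nearest 29.7 kb away and annotated to Cryba2, a lens crystallin, with 18.4 and 11.4 normalized tags. Near Actl6b an iQNP site annotated to Pop7, 50.6 kb away with 7.59 normalized tags, had no TAP partner, and the nearest TAP site lay 1282 kb away, at Vgf. Hrh3 had 12 other sites within 1 Mb in iQNP and 7 in TAP.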
